A study of Mus musculus with 21 samples.

Results

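The 44 genes described here encode proteins that copy DNA or divide the cell. They were taken as a fixed list of symbols, chosen with earlier results of these data known. Member counts set beside shares over all genes are therefore descriptions and not tests of the list. All 44 were found among the 23238 distinct symbols of the count files, and all 44 passed the filter on low counts that left 14727 genes for testing. The S-phase members number 12 and the mitotic members 29, and 3 further members (Lmnb1, Stmn1 and Hmgb2) belong to the nuclear lamina, the microtubules and the chromatin. RNA came from the lungs of C57BL/6 mice, 3 animals in each of 7 groups, and was read at the 3′ ends of transcripts (Lexogen QuantSeq), 1 library per animal. Propylene glycol (PG) was given at 826 or 1100 with saline as its control, and vitamin E acetate (VEA) at 3.12, 6.25 or 12.5 with 10% ethanol as its control. A volume of 50 uL was instilled into the trachea daily over 14 days, and on day 15 the airspaces were washed out and the lung was collected. The labels write the doses in mg/kg and the design text in mg/mL, so they are given here as numbers alone. Age is not given in the sources used here, and no genetic change is labelled for any group.

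Total counts ran from 8778028 to 11783151 per library, of which 5000 to 14686 fell on the 44 members. CPM values are counts put on a common library size by TMM factors. The least covered members were Aurkb and Ccne1, with medians of 9 and 17 counts per library. Aurkb had 0 counts in 2 libraries, and Cep55 and Ncapg each had 0 in 1. A member was called where edgeR's quasi-likelihood test, adjusted over all 14727 genes by Benjamini and Hochberg, gave a value below 0.05. The labels give each animal its own number and say nothing of litters or cages. PG 1100 animal 28 stood apart, being the highest of its group for 39 of the 44 members with a median of 2.32 times the mean of its 2 group mates. PG 826 animal 22 was the highest of its group for 37 members, at a median of 1.70 times its mates. The count of members higher, the mitotic median and each member call after PG 1100 against saline are given with and without animal 28.

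Cells enter division when D-type cyclins and their kinases inactivate the RB proteins, which frees E2F factors to switch on genes for DNA copying: the MCM helicase, the PCNA clamp, cyclin E and the enzymes that make deoxynucleotides. Genes for the later part of the cycle follow, driven by B-MYB and FOXM1 together with the MuvB core, and their products condense chromosomes, build the spindle, check the attachment of kinetochores and cut the cell apart. Most of these mRNAs are scarce in resting cells, so their sum is often read as a sign of dividing cells. The lung of a healthy adult renews slowly, and type II cells, macrophages, endothelial cells and fibroblasts can all divide after injury.

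The genes of the 2 phases differed in the short elements near their start sites. RefSeq promoters (GRCm38.p6, 250 bases before to 50 after the start) were matched for 37 of the 44 members, 25 of them mitotic, 11 S-phase and 1 (Hmgb2) of the remaining class, and were searched on both strands. The cell cycle homology element (CHR, TTTGAA or TTCGAA), through which the MuvB complexes bind late cell cycle genes, was in 20 of 25 mitotic promoters (80.0%) and in 2 of 11 S-phase promoters (18.2%), and 21.7% of the promoters of all 27025 genes with an entry held it. The CCAAT box, the site of the NF-Y factor, was in 84.0% of mitotic and 72.7% of S-phase promoters, against 41.1% of all genes. The E2F element was searched as TTNNCGC with each N a C or a G, and was in 6 of 11 S-phase promoters (54.5%) and 4 of 25 mitotic ones (16%), against 10.9% of all genes with an entry. Among the 11073 tested genes with an entry, the shares were 16.6% for CHR, 42.2% for CCAAT and 18.2% for E2F, so the mitotic share of E2F lay below that of tested genes. A CHR and a CCAAT box stood together in 19 of the 25 mitotic promoters and in 9.65% of all genes. E2F matches on opposite strands can overlap each other, and an E2F match can share bases with a CCAAT box. A match is a run of letters and does not show that a factor bound there.

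The 120 bases before the RefSeq start of 7 members are printed 5′ to 3′ with the matches in capitals, to show their layout. No link between these elements and the direction of a member's change was tested. CHR appears as TTTGAA or TTCGAA or, on the other strand, as TTCAAA, and the CCAAT box as CCAAT or ATTGG. The coordinates are chr10:69352913-69353032 for Cdk1, chr4:118437344-118437463 for Cdc20, chr11:99024190-99024309 for Top2a, chr7:135716380-135716499 for Mki67, chr1:128359706-128359825 for Mcm6 and chr11:43425982-43426101 for Pttg1, all on the reverse strand, and chr19:37376262-37376381 for Kif11 on the forward strand. In GENCODE M21 the last 26 bases of the Cdk1 stretch and the last 9 of the Cdc20 stretch lie in the first exon, the Pttg1 stretch lies in an exon of a non-coding Pttg1 transcript, and the other 4 lie before the gene's exons.
Cdk1: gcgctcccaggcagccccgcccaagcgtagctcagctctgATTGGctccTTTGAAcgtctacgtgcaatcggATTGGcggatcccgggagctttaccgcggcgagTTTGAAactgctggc
Cdc20: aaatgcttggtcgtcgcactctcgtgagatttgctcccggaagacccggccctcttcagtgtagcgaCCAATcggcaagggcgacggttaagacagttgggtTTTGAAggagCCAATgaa
Top2a: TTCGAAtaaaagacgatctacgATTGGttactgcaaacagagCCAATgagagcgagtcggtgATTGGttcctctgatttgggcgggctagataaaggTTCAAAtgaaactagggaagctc
Mki67: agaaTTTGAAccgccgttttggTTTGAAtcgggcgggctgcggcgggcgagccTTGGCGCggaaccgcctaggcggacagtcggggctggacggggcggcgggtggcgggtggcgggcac
Kif11: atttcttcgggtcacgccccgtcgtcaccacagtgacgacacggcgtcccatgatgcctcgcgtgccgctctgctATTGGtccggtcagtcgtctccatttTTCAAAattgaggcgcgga
Mcm6: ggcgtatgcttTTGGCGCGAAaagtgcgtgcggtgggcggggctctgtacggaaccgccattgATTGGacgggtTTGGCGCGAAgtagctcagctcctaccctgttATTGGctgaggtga
Pttg1: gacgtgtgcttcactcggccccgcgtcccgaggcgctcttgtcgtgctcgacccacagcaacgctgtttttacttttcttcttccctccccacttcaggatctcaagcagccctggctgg
Cdk1 combines 2 CHR with 2 CCAAT boxes, Cdc20 combines 1 with 2, and Top2a holds 2 CHR and 3 CCAAT boxes in this stretch. Kif11 has 1 of each. Mki67 carries 2 CHR and 1 E2F match (TTGGCGC) here and its CCAAT boxes farther out. The Mcm6 stretch has no CHR but 2 CCAAT boxes and 2 runs, each made of overlapping E2F matches on opposite strands. Pttg1 held none of the 3 elements in its 300 bases. Among mitotic promoters the same was true of Birc5 and Nusap1, both called higher after VEA 12.5. The GENCODE gene of Pttg1 begins farther upstream, at chr11:43426251, so the bases before that start were not searched.

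**Figure D1:**
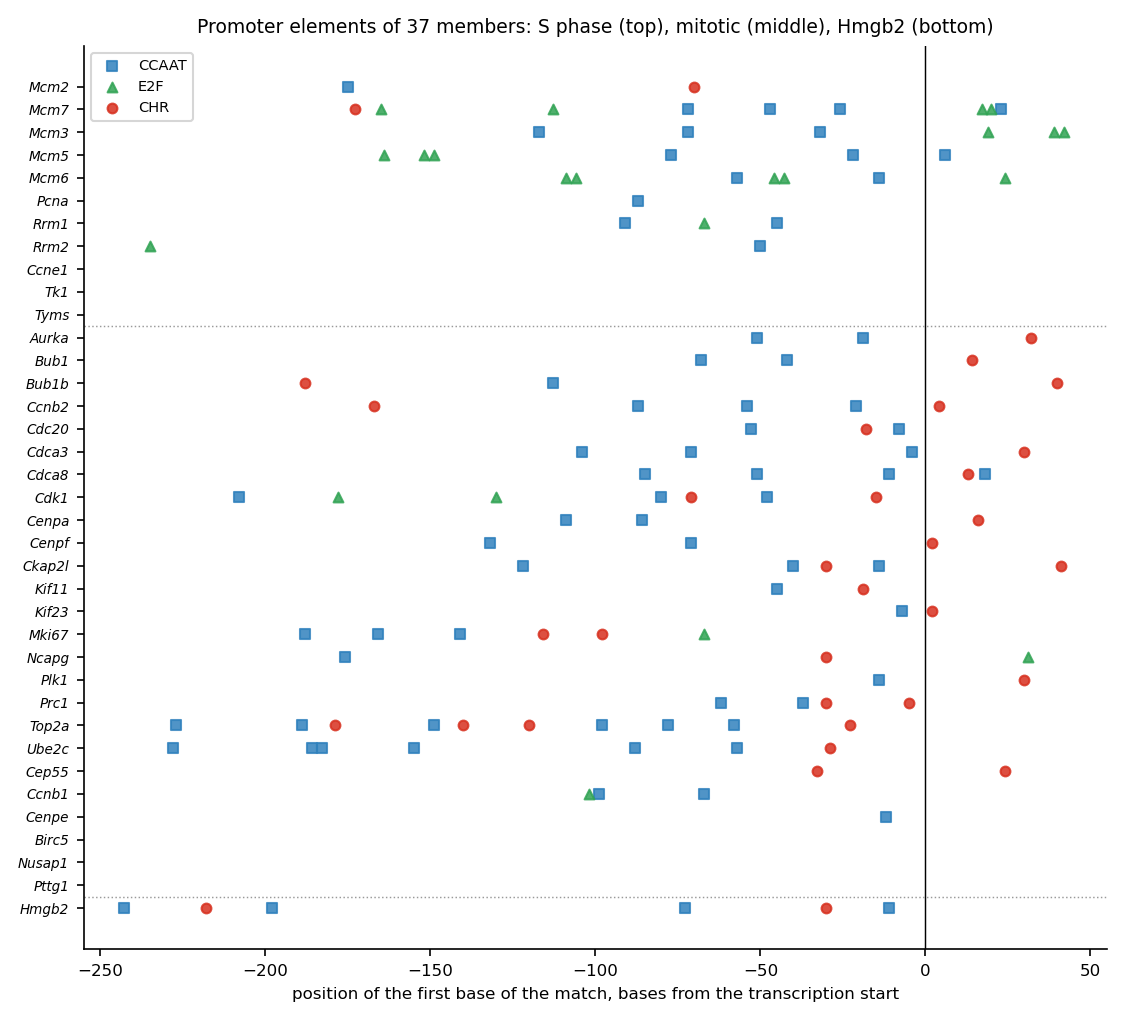
Position of each CHR (red circles), CCAAT (blue squares) and E2F (green triangles) match in the promoters of 37 members, in bases from the RefSeq start (vertical line), from 250 before to 50 after it. CHR matches fill the mitotic rows, in 20 of 25 promoters, and are in 2 of 11 S-phase rows, where E2F matches are in 6.

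The average level of the mitotic members in every lung given PG 1100 or VEA lay above every lung of the matching control, and the PG 826 lungs overlapped saline. Averaged on the log2 CPM scale, the mitotic members stood at 1.96, 2.26 and 2.20 in the 3 ethanol lungs and at 4.17, 3.85 and 4.11 after VEA 12.5, a difference of 1.90. The same average was 3.54, 3.56 and 3.69 after VEA 3.12 and 3.22, 3.67 and 3.54 after VEA 6.25. In the PG arm it was 2.80, 2.76 and 2.22 in saline, 3.26, 2.25 and 2.08 after PG 826 and 3.45, 4.73 and 3.26 after PG 1100. The S-phase average moved by less, from 2.96 ± 0.12 (SD, n = 3) in ethanol to 4.05 ± 0.14 after VEA 12.5, and from 3.11 ± 0.16 in saline to 3.82 ± 0.46 after PG 1100. The mitotic average lay below the S-phase average in all 6 control lungs, by 0.33 to 0.86. After VEA 12.5 the 2 averages were level, with differences of 0.02, -0.04 and -0.02 in the 3 lungs, while after PG 826 they were 0.18, -0.71 and -0.81, after PG 1100 -0.0004, 0.38 and -0.41, after VEA 3.12 -0.35, -0.21 and 0.01 and after VEA 6.25 -0.22, -0.14 and -0.36. The saline lungs ran from -0.74 to -0.33 and the ethanol lungs from -0.86 to -0.80. PG 826 animal 23 and PG 1100 animal 30 thus lay within the range of saline, their control, and PG 826 animal 25 lay below it. VEA 3.12 animal 56 and VEA 6.25 animal 65 lay within the saline range, but every VEA lung lay above every lung of ethanol, its own control. In lung tissue of mixed cells, more dividing cells and more mRNA per dividing cell cannot be told apart.

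**Figure D2:**
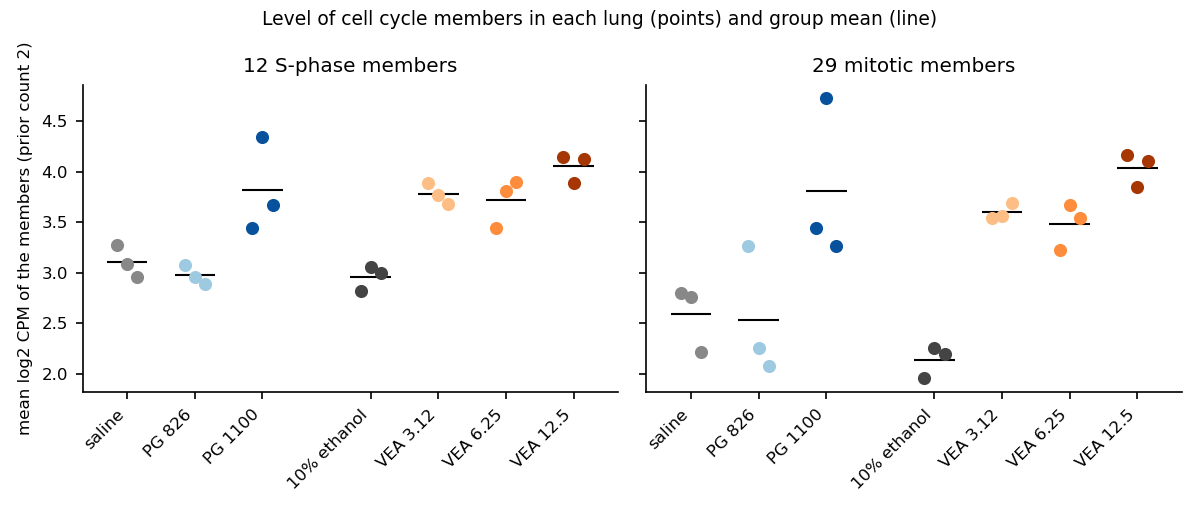
Mean log2 CPM (prior count 2) of the 12 S-phase members (left) and the 29 mitotic members (right) in each of 21 lungs (points), with the group mean as a line and controls first in each arm. All 9 VEA lungs lie above all 3 ethanol lungs in both panels, and PG 1100 animal 28 is the highest point in each.

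After VEA 12.5, 34 of the 44 members rose and 1 fell against ethanol, where 5.48% of all genes tested were called higher and 4.23% lower. Of the mitotic members 25 of 29 rose, with a median log2 fold change of 1.98 over all 29. Of the S-phase members 8 of 12 rose, with a median of 0.86, and of the remaining 3 only Lmnb1 rose. Of the 20 mitotic members with a CHR match 19 rose, and of the 5 whose promoter held none 4 rose and Pttg1 fell. All 3 treated lungs lay above all 3 ethanol lungs for 39 members, a separation seen in 15.3% of all genes. The median over all genes tested was -0.01. Of the 34, 15 kept the call with each animal left out in turn. Leaving out 1 animal at a time gave 23 to 32 members higher, fewest without ethanol animal 14, and without the 3 libraries that had the fewest detected genes the count was 21.

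After VEA 3.12, 16 members rose (12 mitotic, Mcm5, Mcm7, Tk1 and Lmnb1) and 1 fell, against 3.42% and 2.09% of all genes. The treated and ethanol lungs did not overlap for 33 members, against 12.9% of all genes, and the median log2 fold change was 1.46 for mitotic and 0.70 for S-phase members. After VEA 6.25, 13 members rose (10 mitotic, Pcna, Lmnb1 and Hmgb2) and 1 fell, against 3.51% and 2.25% of all genes. Here 27 members did not overlap, against 12.0% of all genes, and the medians were 1.45 and 0.63. The 3 VEA comparisons share the same 3 ethanol lungs. At VEA 3.12 the count of members higher was 7, 10 and 6 without VEA animals 56, 57 and 59, and 4 and 6 without ethanol animals 12 and 14. At VEA 6.25 it was 4 and 3 without VEA animals 64 and 65, and 4, 7 and 6 without ethanol animals 12, 13 and 14, while DESeq2 called 20. The members higher that kept the call with each animal left out were Ccnb1 and Kif23 at VEA 3.12 and Kif23 at VEA 6.25. The other calls at these 2 doses were each lost at least once, with log2 fold changes that stayed above 0.51 at the lowest.

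After PG 1100, 17 members rose (15 mitotic, Rrm2 and Lmnb1) and 1 fell against saline, where 4.09% of all genes were called higher and 3.23% lower. The median log2 fold change was 1.43 over the mitotic and 0.55 over the S-phase members, and 24 members did not overlap, against 10.1% of all genes. Without PG 1100 animal 28 the count fell from 17 to 2 (Cdk1 and Ncapg) and the mitotic median to 0.74, with 25 of 29 mitotic members still above 0. Without saline animal 8 the count was 6 (Ccnb1, Cdc20, Cdk1, Lmnb1, Ncapg and Tpx2), and without saline animal 10 it was 6, with Plk1 in place of Tpx2. Leaving out PG 1100 animal 28 together with PG 826 animal 22, a choice made after seeing the data, gave 4 members higher (Cdk1, Cenpf, Ncapg and Top2a).

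After PG 826, 0 members rose and 1 fell against saline, against 0.0951% and 0.0407% of all genes. By edgeR, 9.47% of all genes had an unadjusted p below 0.05 in either direction. At that threshold edgeR, DESeq2 and limma-voom each had 1 member higher and 2 lower, and each called 0 members higher. The median log2 fold change was -0.05, and leaving out animal 22 together with PG 1100 animal 28 moved it to -0.43, with 4 of 29 mitotic members above 0. In all 3 lungs 1 member, Ncapg, lay above saline without overlap, against 7.27% of all genes. Ncapg stood at 0.888, 0.974 and 0 CPM in saline and 2.85, 2.26 and 2.19 after PG 826, a log2 fold change of 1.98 (SE 0.65, edgeR adjusted p = 0.288). Set directly against PG 826, PG 1100 gave 16 members higher (12 mitotic, 3 S-phase and Lmnb1) and 0 lower, against 2.85% and 2.71% of all genes. The S-phase members among these were Mcm6, Tyms and Tk1, and 16 members did not overlap between the 2 doses, against 9.93% of all genes. The count of members higher was 1 (Cdk1) without PG 1100 animal 28, 27 without PG 1100 animal 27, and 4 and 3 without PG 826 animals 23 and 25.

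**Figure D3:**
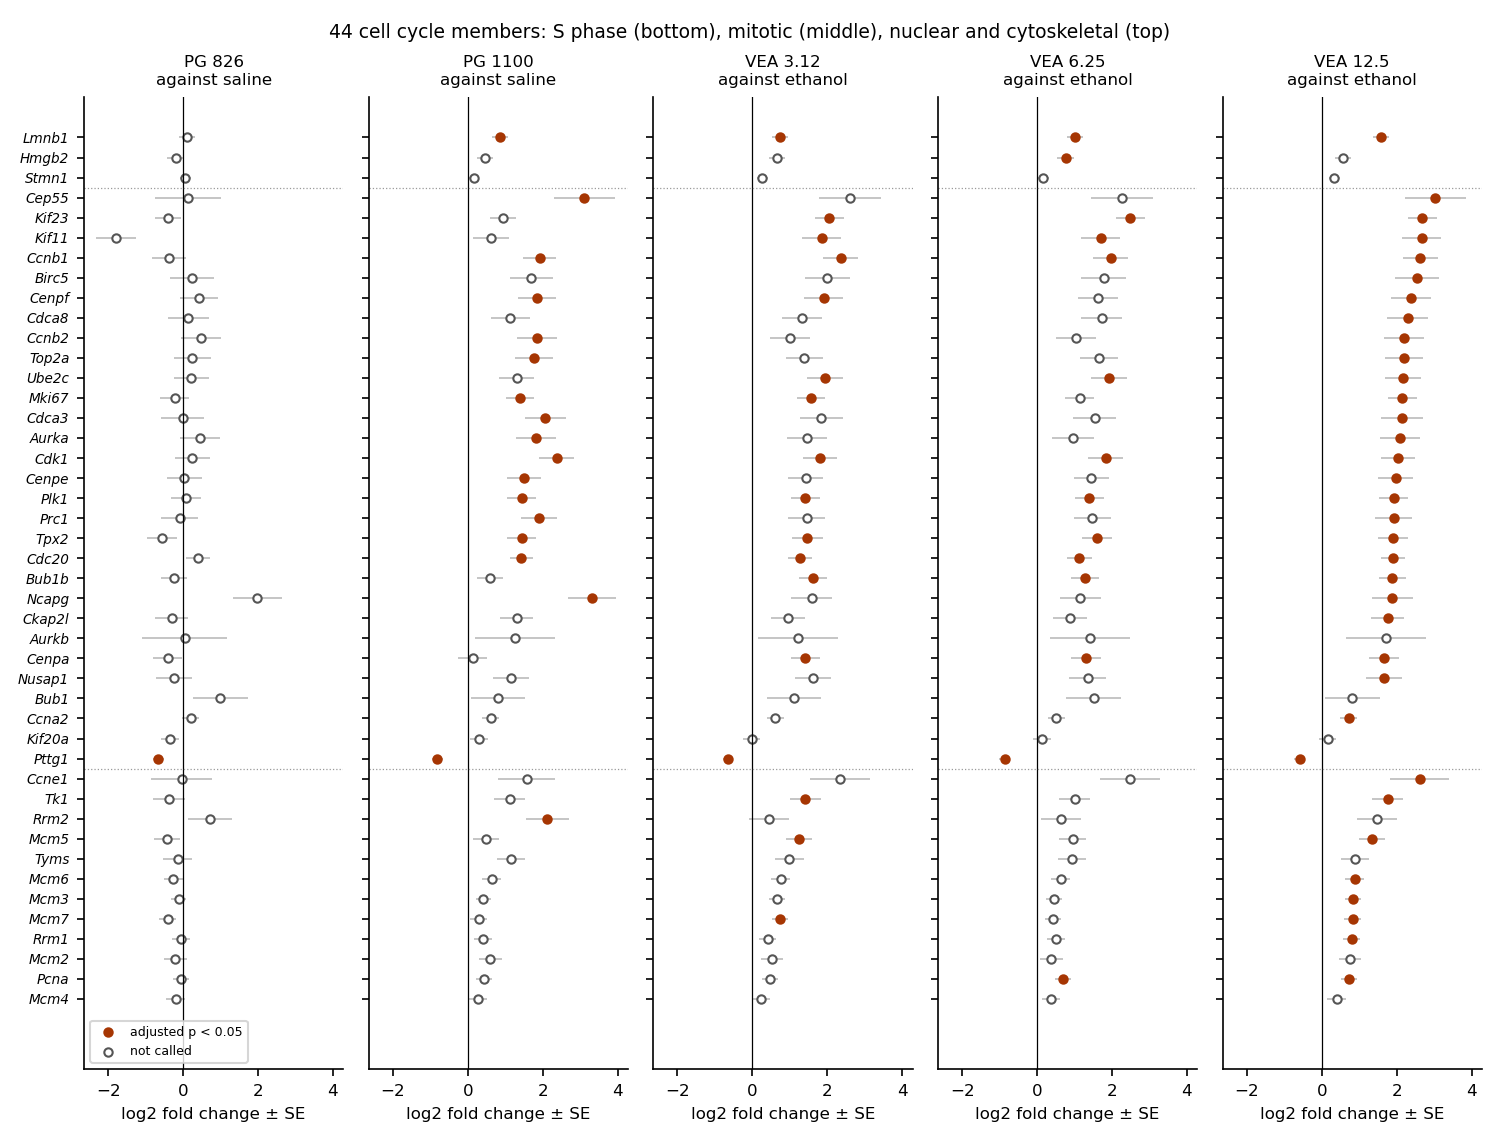
Log2 fold change with its SE for each of the 44 members in the 5 comparisons against a control, filled where the edgeR adjusted p was below 0.05. Members are ordered within each class by their value after VEA 12.5, where 34 filled points lie to the right of 0 and Pttg1 alone lies to the left.

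Among the cyclins and their kinase, Cdk1, the kinase that drives entry into mitosis, was one of 6 members called higher in 4 of the 5 comparisons. It stood at 8.18, 11.4 and 6.32 CPM in saline, 16.97, 7.91 and 5.93 after PG 826 and 27.4, 81.5 and 25.5 after PG 1100, and the log2 fold change of PG 1100 was 2.38 (SE 0.47, edgeR adjusted p = 0.00431). In the VEA arm Cdk1 was at 10.2, 7.34 and 9.71 in ethanol, 20.7, 34.3 and 40.6 after VEA 3.12, 22.98, 36.8 and 37.2 after VEA 6.25 and 40.9, 31.6 and 39.5 after VEA 12.5. Every lung given PG 1100 or VEA lay above every control lung, and log2 fold changes were 1.81 ± 0.46, 1.83 ± 0.46 and 2.04 ± 0.46 (SE) from the lowest VEA dose to the highest. Ccnb1, cyclin B1 and the partner of Cdk1, was at 4.54, 4.02 and 1.95 CPM in saline, 3.72, 3.04 and 1.25 after PG 826 and 8.31, 24.6 and 6.79 after PG 1100. It was at 0.768, 1.62 and 2.16 in ethanol and 7.51, 8.27 and 7.61 after VEA 3.12, 5.61, 7.96 and 4.21 after VEA 6.25, and 11.6, 7.87 and 8.999 after VEA 12.5, again with no overlap of any dose with its control. Its log2 fold change was 1.92 (SE 0.44, edgeR adjusted p = 0.00385) after PG 1100 and 2.63 (SE 0.47, edgeR adjusted p = 0.00018) after VEA 12.5. Without PG 1100 animal 28 the log2 fold change against saline was 1.62 for Cdk1 (edgeR adjusted p = 0.00239), still called, and 1.11 for Ccnb1 (edgeR adjusted p = 0.196), not called. The VEA 12.5 call was lost for Cdk1 without ethanol animal 13 (log2 fold change 1.91).

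Ccnb2, the second B-type cyclin, was at 3.65, 2.07 and 2.33 CPM in saline and 5.22, 20.3 and 3.78 after PG 1100, and at 4.61, 1.73 and 2.05 in ethanol and 13.3, 9.98 and 15.3 after VEA 12.5. It rose in those 2 comparisons, by 1.85 (SE 0.53, edgeR adjusted p = 0.0277) and 2.20 (SE 0.53, edgeR adjusted p = 0.00621), and was not called at the lower VEA doses. Ccna2, cyclin A2, which acts from S phase into early mitosis, rose at VEA 12.5 alone among the 5 comparisons, by 0.73 (SE 0.23, edgeR adjusted p = 0.0353). The 3′ end of Ccna2 overlaps an exon of Exosc9 on the other strand, and whether the counting used strand is not given in the sources used here, so reads of the 2 genes cannot be told apart. Cdca3, an adaptor for the destruction of the mitotic inhibitor WEE1, was at 2.56, 3.29 and 2.53 CPM in saline and 6.66, 23.4 and 5.34 after PG 1100, and rose by 2.08 (SE 0.56, edgeR adjusted p = 0.0212). In ethanol Cdca3 was at 2.96, 3.13 and 1.19 and after VEA 12.5 at 8.71, 10.1 and 13.6, a rise of 2.15 (SE 0.56, edgeR adjusted p = 0.014). Neither PG 1100 call held without animal 28, where the log2 fold change was 0.74 for Ccnb2 (edgeR adjusted p = 0.541) and 1.11 for Cdca3 (edgeR adjusted p = 0.296). At VEA 12.5 the call was lost for Ccnb2 without ethanol animal 13 (log2 fold change 1.95), for Ccna2 without VEA animal 70, ethanol animal 12 or ethanol animal 13 (log2 fold change 0.58 to 0.71) and for Cdca3 without VEA animal 70 or ethanol animal 14 (log2 fold change 1.82 to 1.96).

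Cdc20 and Ube2c, a co-activator and a ubiquitin-conjugating enzyme of the anaphase-promoting complex, rose at all 3 VEA doses, and Cdc20 also after PG 1100. Cdc20 was at 8.09, 5.48 and 6.22 CPM in saline, 11.4, 7.30 and 7.39 after PG 826 and 12.6, 27.9 and 13.2 after PG 1100. In ethanol it was at 4.72, 5.40 and 5.39, and in the treated lungs it was at 13.2, 7.09 and 17.4 after VEA 3.12, 11.8, 14.03 and 8.19 after VEA 6.25, and 20.05, 20.3 and 17.7 after VEA 12.5. It rose by 1.43 (SE 0.31, edgeR adjusted p = 0.00248) after PG 1100 and by 1.90 (SE 0.32, edgeR adjusted p = 7.33e-05) after VEA 12.5, with no overlap in either. Without animal 28 the PG 1100 call was lost, at 0.96 for Cdc20 (edgeR adjusted p = 0.098). The end of Cdc20 overlaps an exon of Elovl1 on the other strand, so these reads cannot be told apart. Ube2c was at 2.41, 5.29 and 4.31 CPM in ethanol and 17.02, 14.1 and 15.4 after VEA 3.12, 11.2, 17.9 and 16.4 after VEA 6.25, and 23.1, 13.7 and 17.3 after VEA 12.5. All 9 treated lungs exceeded the 3 control lungs, and the rise at VEA 12.5 was 2.17 (SE 0.48, edgeR adjusted p = 0.00461). After PG 1100 Ube2c was at 10.5, 25.3 and 5.01 against 7.79, 5.35 and 3.31 in saline, which overlapped and was not called (1.31 ± 0.47, edgeR adjusted p = 0.099).

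Pttg1 (securin, which holds separase inactive until anaphase) was the one member that fell, and it did so in all 5 comparisons against a control. It was at 146, 189 and 166 CPM in the saline lungs and 150.3, 147 and 123 in the ethanol lungs. After PG 826 it was at 117, 90.1 and 110.4 and after PG 1100 at 82.7, 95.1 and 108. In the VEA arm it was at 92.6, 82.3 and 91.9 after VEA 3.12, 79.6, 69.3 and 82.4 after VEA 6.25, and 82.3, 99.4 and 97.5 after VEA 12.5. Every treated lung lay below every control lung. Log2 fold changes were -0.66 ± 0.14 (SE) for PG 826 and -0.81 ± 0.14 for PG 1100 against saline, and -0.66 ± 0.14, -0.86 ± 0.14 and -0.59 ± 0.14 for the VEA doses against ethanol, with edgeR adjusted p from 0.000105 to 0.0379. Comparisons within an arm share their controls. After PG 826 the call was lost without saline animal 8 or 10, without PG 826 animal 23 or 25, with only those 2 groups in the fit and without the 3 libraries with the fewest genes. In the other 4 comparisons it held under every alternative run.

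Of the spindle checkpoint kinases, Bub1b rose at every VEA dose and Bub1 was called in none of the comparisons. Bub1b was at 1.43, 3.45 and 4.10 CPM in ethanol and 8.65, 9.56 and 9.37 after VEA 3.12, 6.15, 6.49 and 9.39 after VEA 6.25, and 11.6, 11.3 and 10.4 after VEA 12.5, with no overlap. Its log2 fold changes against ethanol were 1.61 ± 0.37, 1.29 ± 0.37 and 1.89 ± 0.36 (SE). After PG 1100 Bub1b was at 9.37, 12.3 and 5.79 against 7.30, 6.33 and 4.47 in saline, not called at 0.60 (SE 0.35, edgeR adjusted p = 0.355). Bub1 varied widely among animals of a group, as in VEA 6.25 (0.863, 2.93 and 12.2 CPM), and its log2 fold change at VEA 12.5 was 0.82 (SE 0.73, edgeR adjusted p = 0.576).

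Among the mitotic kinases and the chromosomal passenger complex, which corrects faulty chromosome attachments, Plk1 was called in 4 of the 5 comparisons. Plk1, a kinase needed for spindle assembly, was at 3.85, 3.29 and 3.99 CPM in saline, 7.01, 2.26 and 2.60 after PG 826 and 8.98, 14.9 and 6.34 after PG 1100, a rise over saline of 1.44 (SE 0.39, edgeR adjusted p = 0.0149). In ethanol Plk1 was at 2.19, 5.83 and 3.24, and it was at 10.3, 7.52 and 12.3 after VEA 3.12, 8.63, 8.79 and 12.3 after VEA 6.25, and 16.3, 11.9 and 14.7 after VEA 12.5, all above the ethanol lungs. The rise at VEA 12.5 was 1.92 (SE 0.38, edgeR adjusted p = 0.000698). Aurka, the spindle pole kinase, was at 3.75, 0.974 and 0.486 in saline and 3.96, 9.85 and 5.01 after PG 1100, and at 2.19, 0.971 and 1.29 in ethanol and 7.33, 6.98 and 4.71 after VEA 12.5. It rose by 1.83 (SE 0.53, edgeR adjusted p = 0.0272) and 2.08 (SE 0.54, edgeR adjusted p = 0.00911) in these comparisons. Aurkb, the kinase of the passenger complex, had at most 3.39 CPM in any lung and was called nowhere, with a log2 fold change at VEA 12.5 of 1.72 (SE 1.06, edgeR adjusted p = 0.368). Its partners Birc5 (survivin) and Cdca8 (borealin) were called at VEA 12.5. Birc5 was at 5.16, 3.89 and 6.15 CPM in ethanol and 34.9, 23.9 and 30.03 after VEA 12.5, a rise of 2.55 (SE 0.60, edgeR adjusted p = 0.0121). Cdca8 was at 0.878, 2.05 and 5.28 and 15.3, 9.98 and 15.2, a rise of 2.29 (SE 0.54, edgeR adjusted p = 0.0062), and for both genes the groups did not overlap. Leaving out PG 1100 animal 28 ended the calls of both kinases against saline, at 1.05 for Plk1 (edgeR adjusted p = 0.187) and 1.35 for Aurka (edgeR adjusted p = 0.25), and without saline animal 6 the Aurka value was 3.11. The call at VEA 12.5 was lost for Aurka without ethanol animal 13 (log2 fold change 1.86) and for Birc5 without ethanol animal 13 (log2 fold change 2.39).

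The centromere members Cenpa, Cenpe and Cenpf all rose at VEA 12.5. Cenpa, the histone that marks centromeres, was at 5.16, 3.24 and 4.74 CPM in ethanol and 8.37, 12.9 and 13.9 after VEA 3.12, 11.98, 7.85 and 12.6 after VEA 6.25, and 12.3, 17.5 and 11.9 after VEA 12.5, with log2 fold changes of 1.42 ± 0.39, 1.30 ± 0.40 and 1.66 ± 0.39 (SE). In the PG arm Cenpa was at 5.13, 10.1 and 7.68 in saline and 10.6, 10.3 and 4.01 after PG 1100, which overlapped, and the log2 fold change was 0.13 (SE 0.38, edgeR adjusted p = 0.905). Cenpf, a large kinetochore protein, was at 16.3, 12.3 and 5.64 in saline and 22.8, 78.6 and 22.1 after PG 1100, and rose by 1.85 (SE 0.50, edgeR adjusted p = 0.0357). In ethanol Cenpf was at 4.72, 7.23 and 7.44 and after VEA 3.12 and 12.5 at 22.9, 24.6 and 25.02 and 37.8, 26.6 and 36.8, rises of 1.90 (SE 0.53, edgeR adjusted p = 0.0473) and 2.38 (SE 0.53, edgeR adjusted p = 0.00825). Cenpe, the kinetochore motor, rose by 1.51 (SE 0.45, edgeR adjusted p = 0.0461) after PG 1100 and by 1.98 (SE 0.47, edgeR adjusted p = 0.00842) after VEA 12.5. The PG 1100 calls were lost without animal 28, at 0.98 for Cenpf (edgeR adjusted p = 0.139) and 0.75 for Cenpe (edgeR adjusted p = 0.341), and the VEA 12.5 call for Cenpe without ethanol animal 14 (log2 fold change 1.76).

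The motors Kif11 and Kif23 rose at all 3 VEA doses and were not called after PG 1100 against saline. Kif11, which pushes spindle poles apart, was at 0.987, 2.48 and 1.08 CPM in ethanol and 5.61, 6.23 and 4.63 after VEA 3.12, 3.56, 4.61 and 6.74 after VEA 6.25, and 8.94, 9.90 and 10.3 after VEA 12.5. The rise at VEA 12.5 was 2.67 (SE 0.52, edgeR adjusted p = 0.000463). In saline Kif11 was at 3.75, 4.50 and 3.21, after PG 826 at 1.42, 1.22 and 0.625 and after PG 1100 at 2.51, 12.95 and 2.34, so animal 28 alone lay above saline. The PG 826 lungs lay below saline without overlap, which was not called (-1.79, SE 0.54, edgeR adjusted p = 0.247). Kif23, a motor of the midzone that divides the daughter cells, was at 1.76, 3.67 and 2.80 in ethanol and 11.1, 9.56 and 13.6 after VEA 3.12, 10.4, 13.7 and 22.3 after VEA 6.25, and 18.5, 19.2 and 15.5 after VEA 12.5. Its VEA rises were 2.05 ± 0.38, 2.48 ± 0.38 and 2.68 ± 0.38 (SE), and these calls held under every alternative run. The saline lungs were at 7.30, 12.9 and 7.88 and so lay above the ethanol lungs, and PG 1100 was at 12.7, 29.7 and 11.6, not called at 0.95 (SE 0.35, edgeR adjusted p = 0.0944).

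Cep55, which acts in the final cut between daughter cells, rose after PG 1100 and VEA 12.5. It was at 0, 3.89 and 0.431 CPM in ethanol and 17.5, 5.03 and 13.2 after VEA 12.5, a log2 fold change of 3.04 (SE 0.82, edgeR adjusted p = 0.024). It was at 2.37, 1.22 and 0.875 in saline and 10.6, 20.6 and 7.79 after PG 1100, a rise of 3.11 (SE 0.81, edgeR adjusted p = 0.0263). The 3 ethanol lungs held 40 Cep55 counts in all, and without ethanol animal 13 the VEA 12.5 value was 5.70. Tpx2, which activates Aurka on the spindle, was at 5.92, 6.21 and 4.18 in saline and 11.6, 24.4 and 8.46 after PG 1100. In ethanol Tpx2 was at 4.17, 1.08 and 4.31 and it was at 9.51, 6.98 and 10.03 after VEA 3.12, 6.58, 10.9 and 11.4 after VEA 6.25, and 11.3, 10.4 and 14.2 after VEA 12.5. It rose by 1.45 (SE 0.38, edgeR adjusted p = 0.0142) after PG 1100 and 1.91 (SE 0.40, edgeR adjusted p = 0.00125) after VEA 12.5 with no overlap. Prc1, which bundles midzone microtubules, was at 11.1, 6.21 and 6.03 in saline and 17.2, 55.6 and 15.2 after PG 1100, a rise of 1.90 (SE 0.48, edgeR adjusted p = 0.0208). After VEA 12.5 Prc1 was at 23.6, 16.4 and 25.7 against 4.06, 7.45 and 5.82 in ethanol, a rise of 1.92 (SE 0.49, edgeR adjusted p = 0.0175). The ends of Prc1 and Ckap2l overlap exons of Rccd1 and Gm14024 on the other strand. Nusap1 and Ckap2l, both spindle proteins, rose at VEA 12.5 (1.66 ± 0.48 and 1.76 ± 0.45 SE) and in no other comparison against a control. Kif20a, a midzone motor whose end overlaps Cdc23, was called nowhere, at 0.16 (SE 0.23, edgeR adjusted p = 0.759) after VEA 12.5. After PG 1100 none of the calls of Cep55, Tpx2 and Prc1 held without animal 28, at 2.62 for Cep55 (edgeR adjusted p = 0.116), 0.89 for Tpx2 (edgeR adjusted p = 0.28) and 1.05 for Prc1 (edgeR adjusted p = 0.113). The VEA 12.5 calls of this group were lost for Cep55 without VEA animal 66, VEA animal 70 or ethanol animal 14 (log2 fold change 2.61 to 2.97), for Prc1 without VEA animal 70, ethanol animal 12 or ethanol animal 14 (log2 fold change 1.72 to 1.92), for Nusap1 without any 1 of the 6 animals (log2 fold change 1.45 to 1.96) and for Ckap2l without VEA animal 70, ethanol animal 13 or ethanol animal 14 (log2 fold change 1.57 to 1.65).

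Of the chromosome members, Top2a (topoisomerase II alpha, which untangles sister DNA) was at 21.3, 18.02 and 14.2 CPM in ethanol and 84.8, 72.7 and 87.6 after VEA 12.5. It was at 33.7, 25.8 and 11.1 in saline, 49.6, 19.2 and 15.5 after PG 826 and 53.8, 142 and 45.6 after PG 1100. Both higher-dose groups lay above their control without overlap, with rises of 2.19 (SE 0.51, edgeR adjusted p = 0.0122) and 1.77 (SE 0.50, edgeR adjusted p = 0.0448). Mki67, the Ki-67 antigen that coats mitotic chromosomes, was at 13.5, 8.52 and 12.7 in saline and 15.2, 56.1 and 20.6 after PG 1100, a rise of 1.39 (SE 0.37, edgeR adjusted p = 0.0239). In ethanol Mki67 was at 8.89, 6.69 and 8.09, and it was at 21.4, 25.6 and 23.04 after VEA 3.12, 16.1, 22.1 and 13.97 after VEA 6.25, and 40.1, 24.3 and 41.2 after VEA 12.5. It rose at VEA 3.12 and 12.5 (1.56, SE 0.38, edgeR adjusted p = 0.018, and 2.16, SE 0.38, edgeR adjusted p = 0.000741), and at VEA 6.25 the lungs did not overlap ethanol but the call was missed (1.14, SE 0.39, edgeR adjusted p = 0.0919). Ncapg, a condensin subunit whose end overlaps Lcorl, was at 2.61, 11.95 and 4.01 after PG 1100 against 0.888, 0.974 and 0 in saline. Its rise of 3.33 (SE 0.64, edgeR adjusted p = 0.000604) was the largest of any member after PG 1100 and rests on 17 counts in the 3 saline lungs. At VEA 12.5 Ncapg was at 9.56, 6.41 and 8.92 against 0.987, 4.21 and 1.51 in ethanol, a rise of 1.88 (SE 0.55, edgeR adjusted p = 0.0222). Without PG 1100 animal 28 the Ncapg call held, at 2.42 for Ncapg (edgeR adjusted p = 0.0235), and the others were lost, at 1.08 for Top2a (edgeR adjusted p = 0.27) and 0.62 for Mki67 (edgeR adjusted p = 0.298). At VEA 12.5 a call was lost for Top2a without ethanol animal 14 (log2 fold change 2.06) and for Ncapg without VEA animal 66, VEA animal 70, ethanol animal 12 or ethanol animal 14 (log2 fold change 1.53 to 1.84).

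**Figure D4:**
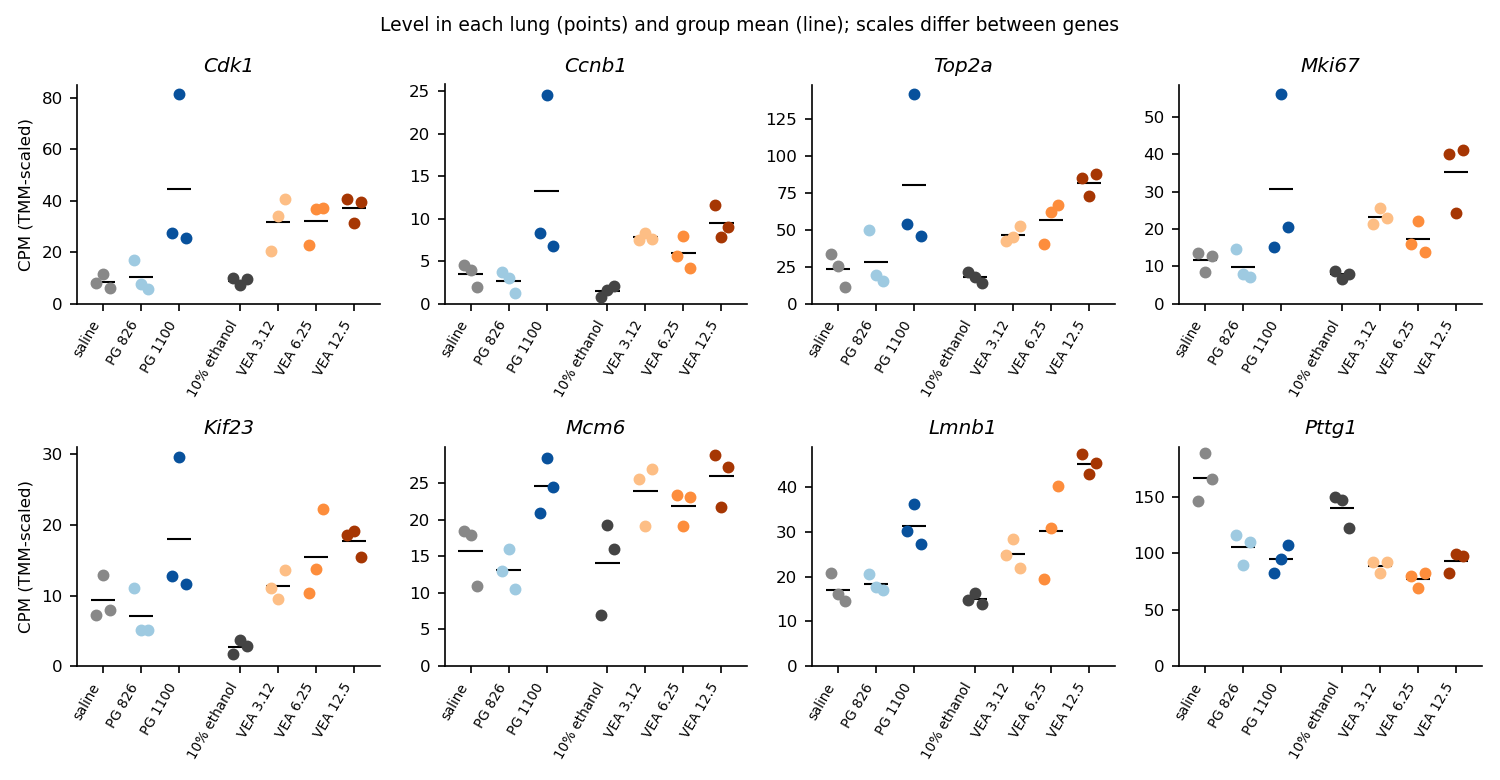
TMM-scaled CPM of 8 members in each of 21 lungs (points) with the group mean (line), on scales that start at 0 and differ between genes. Cdk1, Ccnb1, Top2a, Mki67, Kif23, Mcm6 and Lmnb1 are higher after VEA 12.5 than in ethanol, the point above the rest of PG 1100 for Cdk1, Ccnb1, Top2a, Mki67 and Kif23 is animal 28, and Pttg1 is lower in every treated lung than in every control lung.

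The S-phase members had smaller median changes than the mitotic members in every comparison with PG 1100 or VEA against a control. The MCM genes encode the 6 subunits of the helicase that opens DNA at replication origins, and Mcm3, Mcm5, Mcm6 and Mcm7 rose at VEA 12.5 while Mcm2 and Mcm4 were not called. Mcm5 was at 6.36, 4.86 and 2.80 CPM in ethanol, 11.6, 9.02 and 12.7 after VEA 3.12 and 13.03, 9.82 and 12.8 after VEA 12.5, rises of 1.25 (SE 0.35, edgeR adjusted p = 0.0295) and 1.34 (SE 0.35, edgeR adjusted p = 0.00989). Mcm3 was at 13.3, 14.03 and 16.8 and 30.6, 22.4 and 25.8, a rise of 0.84 (SE 0.21, edgeR adjusted p = 0.00601) that held under every alternative run. Mcm6 and Mcm7 rose by 0.88 (SE 0.26, edgeR adjusted p = 0.0213) and 0.83 (SE 0.22, edgeR adjusted p = 0.0109), and the end of Mcm7 overlaps an exon of Cops6 on the other strand. Mcm2 and Mcm4 had log2 fold changes of 0.76 ± 0.30 and 0.40 ± 0.24 (SE), with edgeR adjusted p of 0.107 and 0.367. After PG 1100 the 6 MCM genes had log2 fold changes from 0.28 (Mcm4) to 0.64 (Mcm6) against saline, and none was called. Among these genes the VEA 12.5 call was lost for Mcm5 without ethanol animal 14 (log2 fold change 1.08), for Mcm6 without VEA animal 66, VEA animal 70 or ethanol animal 12 (log2 fold change 0.56 to 0.85) and for Mcm7 without VEA animal 66 or ethanol animal 14 (log2 fold change 0.68 to 0.71).

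Pcna, the clamp that holds the polymerase on DNA, rose at VEA 6.25 and 12.5, by 0.69 (SE 0.21, edgeR adjusted p = 0.0459) and 0.74 (SE 0.21, edgeR adjusted p = 0.0199). Of the enzymes of deoxynucleotide supply, Tk1 (thymidine kinase) was at 3.18, 6.15 and 3.34 CPM in ethanol, 16.5, 9.13 and 8.16 after VEA 3.12 and 13.6, 12.1 and 17.5 after VEA 12.5. It rose by 1.41 (SE 0.42, edgeR adjusted p = 0.0395) and 1.77 (SE 0.41, edgeR adjusted p = 0.00458). Rrm1, the large subunit of ribonucleotide reductase, rose at VEA 12.5 by 0.80 (SE 0.23, edgeR adjusted p = 0.0221). Rrm2, the small subunit, was the S-phase member that rose after PG 1100, from 1.18, 0.974 and 0.973 CPM in saline to 2.41, 9.19 and 2.23, by 2.12 (SE 0.58, edgeR adjusted p = 0.0166), and it was highest in animal 28. At VEA 12.5 Rrm2 was at 8.10, 6.57 and 8.33 against 1.10, 3.35 and 3.77 in ethanol, a separation without overlap that was not called (1.48, SE 0.53, edgeR adjusted p = 0.0712). Tyms (thymidylate synthase) was called against PG 826 but against neither control, at 1.15 (SE 0.38, edgeR adjusted p = 0.056) for PG 1100 and 0.88 (SE 0.38, edgeR adjusted p = 0.149) for VEA 12.5. A processed copy, Tyms-ps, is counted separately in the files, so reads of the 2 could be split. Ccne1, cyclin E1, was at 0.329, 0.324 and 0.755 CPM in ethanol and 3.47, 3.41 and 1.93 after VEA 12.5, and its rise of 2.61 (SE 0.79, edgeR adjusted p = 0.0276) rests on 13 counts in the 3 ethanol lungs. Without animal 28 the PG 1100 value was 1.14 for Rrm2 (edgeR adjusted p = 0.382), not called. The VEA 12.5 call was lost for Pcna without VEA animal 70, ethanol animal 13 or ethanol animal 14 (log2 fold change 0.56 to 0.72), for Rrm1 without VEA animal 70 or ethanol animal 12 (log2 fold change 0.61 to 0.69) and for Ccne1 without VEA animal 66, VEA animal 68, ethanol animal 12 or ethanol animal 13 (log2 fold change 2.41 to 2.51).

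Lmnb1, lamin B1 of the nuclear envelope, was among the 6 members called in 4 of the 5 comparisons. It was at 20.8, 16.1 and 14.5 CPM in saline, 20.5, 17.7 and 16.97 after PG 826 and 30.2, 36.3 and 27.4 after PG 1100, a rise of 0.87 (SE 0.21, edgeR adjusted p = 0.00597). In ethanol it was at 14.8, 16.4 and 13.8 and it was at 24.8, 28.5 and 21.9 after VEA 3.12, 19.4, 30.8 and 40.3 after VEA 6.25, and 47.3, 42.9 and 45.4 after VEA 12.5, all above ethanol. Its rise at VEA 12.5 was 1.59 (SE 0.21, edgeR adjusted p = 1.66e-06), and the PG 1100 call was lost without animal 28, at 0.75 for Lmnb1 (edgeR adjusted p = 0.0562). Hmgb2, a chromatin protein abundant in dividing cells, rose at VEA 6.25 alone (0.76, SE 0.22, edgeR adjusted p = 0.0297). Stmn1 (stathmin, a microtubule destabiliser) was called nowhere, at 0.34 (SE 0.14, edgeR adjusted p = 0.145) after VEA 12.5.

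Between VEA 12.5 and VEA 3.12, 0 members were called higher and 0 lower, as for all genes (0% and 0%). By edgeR, 5.43% of all genes had an unadjusted p below 0.05 in either direction. At that threshold 3 members were higher by edgeR, 2 by DESeq2 and 8 by limma-voom. Of the members, 41 of 44 log2 fold changes were above 0, with a median of 0.31 (mitotic 0.47, S-phase 0.20) against 0.00 over all genes. All 3 lungs of the higher dose lay above all 3 of the lower for 14 members (11 mitotic and 2 S-phase), against 7.20% of all genes, and below for 0. The smallest p was that of Lmnb1, at 0.85 (SE 0.20, edgeR adjusted p = 0.417), followed by Ccnb2 (1.19, SE 0.50, edgeR adjusted p = 0.846), Cdc20 (0.62, SE 0.30, edgeR adjusted p = 0.901) and Rrm2 (1.04, SE 0.52, edgeR adjusted p = 0.922). With only these 2 groups in the fit 2 members were called higher, and 2 without a low-count filter.

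The vehicles were compared because each arm has its own control. Of the members, 0 were called higher and 0 lower in ethanol than in saline, as for all genes (0% and 0%). By edgeR, 6.06% of all genes had an unadjusted p below 0.05 in either direction. At that threshold 2 members were higher and 5 lower by edgeR and by DESeq2. The median log2 fold change was -0.32, 7 of 44 were above 0, and 1 member (Ncapg) lay higher without overlap, against 4.69% of all genes. Lower without overlap were 5 members, all mitotic, against 4.37% of all genes. The smallest p values belonged to Kif23 (-1.76, SE 0.39, edgeR adjusted p = 0.45), Ncapg (1.87, SE 0.66, edgeR adjusted p = 0.637), Bub1b (-1.01, SE 0.37, edgeR adjusted p = 0.688) and Kif11 (-1.32, SE 0.52, edgeR adjusted p = 0.732). Kif23, Bub1b and Kif11 lay lower in all 3 ethanol lungs than in all 3 saline lungs, and these 3 genes were among those called against ethanol and not against saline.

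The VEA 12.5 change over ethanol was set against the PG 1100 change over saline in 1 test of the difference. It called 0 members in either direction, against 0.136% of all genes higher and 0.0543% lower. By edgeR, 7.89% of all genes had an unadjusted p below 0.05 in either direction. At that threshold 5 members were higher by each of edgeR, DESeq2 and limma-voom. The largest differences by p were those of Kif23 (1.74, SE 0.51, edgeR adjusted p = 0.189), Kif11 (2.04, SE 0.70, edgeR adjusted p = 0.324), Cenpa (1.53, SE 0.55, edgeR adjusted p = 0.366) and Bub1b (1.29, SE 0.50, edgeR adjusted p = 0.426). Without PG 1100 animal 28, Kif11 (3.32) and Kif23 (2.30) were called, on the log2 scale. Of the 17 members higher after PG 1100, 16 were also among the 34 higher after VEA 12.5 (94.1% and 47.1% of the lists), and the exception was Rrm2. Since 34 of all 44 members were higher after VEA 12.5, most of any such list would be shared. Without animal 28 the PG 1100 list held only Cdk1 and Ncapg, both among the 34. The overlap of the called lists over all genes is not given here. The PG 1100 and VEA 12.5 comparisons share no lungs.

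Called regulators upstream of the members are listed beside the shares over all genes, 4.09% higher and 3.23% lower after PG 1100. At the rising VEA doses these shares were 3.42%, 3.51% and 5.48% higher and 2.09%, 2.25% and 4.23% lower. The regulator lists hold 7 to 13 genes each, and their counts were not tested against these shares. None of the 8 D-type cyclins and G1 kinases was called in any comparison against a control, with medians from -0.0025 to 0.17 on the log2 scale. Of 7 inhibitors of cyclin-dependent kinases, Cdkn1a (p21, a target of p53) rose after PG 1100, from 107, 80.3 and 101 CPM in saline to 192, 130.3 and 159, by 0.74 (SE 0.16, edgeR adjusted p = 0.00158). Cdkn2a, which encodes p16 and ARF, rose at VEA 6.25 and 12.5, by 2.14 (SE 0.52, edgeR adjusted p = 0.00951) and 2.20 (SE 0.52, edgeR adjusted p = 0.00405), and stood at 5.55, 5.76 and 9.67 CPM after VEA 12.5 against 0.878, 1.94 and 1.73 in ethanol. Cdkn1c (p57) fell at VEA 12.5 (-0.58, SE 0.15, edgeR adjusted p = 0.00911). Of 13 RB and E2F family genes, E2f5 rose at VEA 3.12 and 6.25 (0.95 ± 0.22 and 0.83 ± 0.22 SE), and at VEA 12.5 the repressor E2f7 rose (3.54, SE 1.04, edgeR adjusted p = 0.0227) and the E2F partner Tfdp2 fell (-0.58, SE 0.15, edgeR adjusted p = 0.00847). Of the 7 genes of the MuvB, B-MYB and FOXM1 list, Foxm1 rose at VEA 6.25 and 12.5, from 0.219, 0 and 0.755 CPM in ethanol to 0.971, 4.50 and 3.85 and 3.16, 1.70 and 3.78, by 3.21 (SE 0.94, edgeR adjusted p = 0.0336) and 3.10 (SE 0.93, edgeR adjusted p = 0.0266). Foxm1 had 9 counts over the 3 ethanol lungs and E2f7 6, so both fold changes rest on few counts.

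The lists also held genes of each phase outside the 44. Of 20 tested genes of origin licensing and the replication fork, 1 rose after PG 1100 and 1, 1 and 3 after the rising VEA doses, and none fell. The first 3 shares are near those over all genes, 4.09%, 3.42% and 3.51%, and the last stands beside 5.48%. Gins1, a helicase subunit, rose after PG 1100 by 3.28 (SE 0.81, edgeR adjusted p = 0.00735). Fen1, the nuclease that trims Okazaki fragments, rose at every VEA dose (1.18 ± 0.31, 1.03 ± 0.31 and 1.29 ± 0.31 SE), and at VEA 12.5 Cdt1, an origin licensing factor, and Uhrf1, which copies DNA methylation marks, rose by 1.31 ± 0.39 and 1.97 ± 0.60. Of 19 further genes of entry into and exit from mitosis, 4 rose after PG 1100 and 3, 4 and 9 after the rising VEA doses, with medians of 1.36, 1.20, 0.99 and 1.53. After PG 1100 these were Mad2l1, a spindle checkpoint protein (1.77, SE 0.48, edgeR adjusted p = 0.0168), Wee1, the kinase that restrains Cdk1 (0.91 ± 0.28 SE), Hmmr and Racgap1 (2.99 ± 0.83 and 1.66 ± 0.52). At VEA 12.5 the 4 smallest p values were those of Ect2, which starts the cleavage furrow (4.19, SE 0.74, edgeR adjusted p = 0.000145), the kinetochore partners Nuf2 (3.31, SE 0.71, edgeR adjusted p = 0.00172) and Ndc80 (2.97, SE 0.72, edgeR adjusted p = 0.00653), and the condensin Smc2 (0.89, SE 0.23, edgeR adjusted p = 0.0118). Ect2 had 8 counts over the 3 ethanol lungs. None of these 6 lists had a called gene after PG 826.

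Markers of macrophages and of other lung cells were also called, and their part in the members' change was not tested. Over all genes, 4.09% were called higher and 3.23% lower after PG 1100. After the rising VEA doses 3.42%, 3.51% and 5.48% were higher and 2.09%, 2.25% and 4.23% lower. After PG 826, where 0 members rose and 0.0951% of all genes were higher, 1 fibroblast marker was higher. Of 8 markers of recruited macrophages and monocytes, 6 were higher after PG 1100 and 6, 6 and 7 after the rising VEA doses. Their summed level was 162 to 190.0 CPM in saline, 204 to 234 after PG 826 and 449.6 to 1490.3 after PG 1100, the top value being that of animal 28. It was 166 to 196 in ethanol and 409 to 575, 511 to 597 and 578 to 726 after the VEA doses. Of 7 alveolar macrophage markers, 1 was higher after PG 826, 4 after PG 1100 and 4, 4 and 5 after VEA, with sums of 684 to 1340.1 in saline, 1289 to 1753 after PG 826, 1474 to 2000.2 after PG 1100, 953 to 1201 in ethanol and 1459 to 1649 after VEA 12.5. Of 6 markers shared by leukocytes, 2 were higher after PG 1100 and 3, 3 and 5 after VEA, and their sum was 391 to 435 CPM in ethanol and 735 to 772 after VEA 12.5. The macrophage and leukocyte sums of VEA 12.5 and ethanol did not overlap.

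None of 6 T cell markers and none of the 3 tested of 7 neutrophil and marrow markers was called in any comparison. Among the latter Elane was at 0 in all 21 libraries, and Mpo, Camp and Ngp were at 0 in most. Of the 4 tested erythroid markers 2 were lower after PG 1100 and 1, 2 and 3 after VEA, and Klf1 was at 0 in 15 of 21 libraries. Of 6 B and plasma cell markers 1 was lower after PG 1100 and 1 higher at each VEA dose. Type II cell markers, which mark the lung's own epithelium and were abundant in every library, were higher for 3 of 6 after PG 1100 and for 1, 0 and 2 after VEA. Their sum was 19995 to 27694 CPM in saline, 25584 to 38555 after PG 1100, 18740.2 to 22224 in ethanol and 17742 to 19371 after VEA 12.5. Endothelial markers were lower for 5 of 6 after PG 1100 and for 3, 4 and 3 after VEA, airway markers for 3 of 4 tested in each of those 4 comparisons, and fibroblast markers were called in both directions. The endothelial sum was 1052 to 1323 in saline and 569 to 776 after PG 1100, and 1187 to 1258 in ethanol and 790.1 to 859 after VEA 12.5. PG 1100 animal 28, highest of its group for recruited macrophage markers, was also highest for the leukocyte (702) and type II (38555) sums. The neutrophil and erythroid sums were likewise highest in animal 28. It was lowest for the endothelial (569), airway (21595), fibroblast (2336) and B cell sums, and between its mates for alveolar macrophages and T cells. The lungs were collected after the airspaces were washed out, so cells removed by the wash are missing from these levels. In libraries of mixed lung tissue the members cannot be assigned to a cell type.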

How the data were processed

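Libraries were prepared from 500 ng of total RNA with the Lexogen QuantSeq kit, per the labels' protocols. The submitters' processing notes name Bowtie2, bedtools and the assembly mm10, with no versions given, and the annotation and strand setting are not given in the sources used here. The files the authors deposited hold raw counts per gene symbol, 1 file per library, with 23282 rows, and repeated rows of 35 symbols were added together. The members and all lists were chosen with earlier results of these data known.

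Genes were filtered by group (filterByExpr), scaled by TMM and fitted in 1 model of 7 group means with edgeR 4.0.16 in R 4.3.3 (14 residual degrees of freedom, robust), and the quasi-likelihood test was adjusted over all 14727 genes by Benjamini and Hochberg. An SE is the absolute log2 fold change divided by the square root of F. Log2 CPM used a prior count of 2. The test was also run on counts simulated from its own fitted dispersions, which cannot show how well that model fits these data. Changes were set there only in genes above a level that some members do not reach. Libraries of a group differed beyond counting error (chi-square per degree of freedom 8.43 to 43.0 over pairs). This sum includes very abundant genes such as Rn45s, and repeat libraries of the same RNA could also exceed counting error. It therefore cannot show whether any library was a repeat of another. Nothing in the labels says how animals were housed or processed in batches. The p-values set group differences against a spread between animals that was estimated over all 7 groups. They cannot separate a treatment from anything else that the animals of a group shared.

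Named were all members, with values in every library for those called in most comparisons and the 10 called with the largest change in each comparison against a control (where none was called, the 4 smallest p), up to 4 called genes per pathway list by p, and any member called against the main direction. Alternatives were RLE scaling, DESeq2 1.42.0, limma-voom (limma 3.58.1), all genes kept whatever their counts, a fit of the compared groups alone, removal of Rn45s and haemoglobin, each animal left out, 3 libraries with the fewest detected genes left out, a prior count of 0.5 and a 200-base promoter window. Sequences are RefSeq's for GRCm38.p6, and gene overlaps come from GENCODE M21 on GRCm38 over the last 500 bases.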

Additional observations from a re-analysis of the deposited data

How the results depend on the processing

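Across the alternatives no member's call changed direction, and 22 of the 101 member calls held under every alternative: 14 of 35 at VEA 12.5, 3 of 17 at VEA 3.12, 2 of 14 at VEA 6.25, 3 of 18 for PG 1100 against saline, 0 of 16 for PG 1100 against PG 826 and 0 of 1 for PG 826. RLE scaling and removal of Rn45s and haemoglobin moved no count of members by over 1.5 times, and RLE moved the median of all genes by under 0.02. Without a low-count filter the members called higher were 26 (PG 1100 against saline), 25 (PG 1100 against PG 826), 1 (PG 826), 28 (VEA 3.12), 23 (VEA 6.25), 2 (VEA 12.5 against VEA 3.12) and 1 (VEA 12.5 change minus PG 1100 change), and those lower 2 (PG 826) and 1 (ethanol against saline). limma-voom gave 8, 10, 7 and 6 higher for PG 1100 against saline, PG 1100 against PG 826, VEA 3.12 and VEA 6.25, and DESeq2 gave 20 for VEA 6.25, with its adjusted p undefined for 1 member there and for 2 each in PG 826 against saline and PG 1100 against PG 826. With only the compared groups fitted, the counts higher were 9, 5 and 2 for PG 1100 against saline, PG 1100 against PG 826 and VEA 12.5 against VEA 3.12, and 0 were lower after PG 826. Without the 3 libraries with the fewest genes they were 9 (PG 1100 against saline), 4 (VEA 6.25) and 21 (VEA 12.5) higher and 0 lower after PG 826. Without PG 826 animal 22 and PG 1100 animal 28, chosen after seeing the data, they were 4 (PG 1100 against saline), 9 (PG 1100 against PG 826) and 4 (VEA 12.5 change minus PG 1100 change). Leaving out 1 animal gave 2 to 22 members higher for PG 1100 against saline, 1 to 27 for PG 1100 against PG 826, 4 to 11 for VEA 3.12, 3 to 11 for VEA 6.25, 23 to 32 for VEA 12.5, 0 to 2 for the VEA 12.5 change minus the PG 1100 change, and 0 to 1 lower after PG 826. The cause of these changes was not tested. A prior count of 0.5 moved no class average by more than its spread, and the 200-base window left the share of mitotic promoters with CHR at 80.0%. No paired analysis was possible because the animal numbers are not shared between groups. Counting depth limits Aurkb, Cep55, Ncapg and Ccne1, with few counts in some groups.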
